A study of Drosophila melanogaster and Drosophila persimilis and Drosophila pseudoobscura with 5 samples.

Results

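The fatty acid desaturase gene desat2 (current symbol Desat2) and the chemosensory protein gene CheB98a are known from work on fly pheromones. They were followed here together with desat1 and the CheA and CheB families in RNA of Johnston's organ, with which flies hear and which fills the second antennal segment. Rows of the authors' cross-species table named desat2, desat1, CheA or CheB were taken, which gave 7 of 8180 rows. These were desat2, CheB98a, CheB42a, CheA7a, CheA46a, CheA84a and CheA87a, and no row was named desat1. desat2 and CheB98a had been chosen by their signal in this table, high in D. pseudoobscura and D. persimilis and near 0 in the other species, so that these values are a description and carry no test.

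The 5 groups were adult flies of 3 species of the melanogaster species group (D. yakuba, D. melanogaster and D. simulans) and 2 of the obscura group (D. persimilis and D. pseudoobscura). All were raised at 25 degrees Celsius and none was given a treatment in the labels. The sources used here do not give strain, sex or how many flies were pooled. Each species had 1 library, so no difference below has a replicate check, no spread within a species is known and no p-value was computed. Reads counted on genes ranged from 7580214 in D. simulans to 22391819 in D. melanogaster. Of 12 chordotonal markers 11 had reads in D. melanogaster, and Tektin-A had none. Of these markers 8 were rows of the cross-species table, whose signals summed to 58.0 in D. melanogaster, 42.4 in D. yakuba, 34.4 in D. pseudoobscura, 30.5 in D. simulans and 9.81 in D. persimilis. Rootletin, of the ciliary rootlet, was at 0 in D. pseudoobscura and 0.0674 in D. persimilis. By the rule given below it was the 1 of 3 compared rows called lower in the obscura group, against 5.86% of all compared rows. The other compared rows, nan and nompB, were not called. Their mean differences between the obscura and melanogaster groups, on the log2 scale used below, were 0.50 for nan and -0.83 for nompB. For nan the groups overlapped, with 7.80 in D. pseudoobscura, 7.78 in D. persimilis, 14.7 in D. melanogaster and 0.0910 in D. simulans.

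In insects, desaturases place double bonds in fatty acyl chains, which are then elongated, reduced and stripped of a carbon to become the hydrocarbons of the cuticle. These waxes hold back water, and some act as contact pheromones. In D. melanogaster, desat1 serves the bulk of this synthesis, while desat2 is best known from African and Caribbean strains, in which it shifts the double bond of the female hydrocarbons. Most other strains of that species carry a promoter deletion that silences desat2. CheA and CheB proteins are small secreted proteins, and the CheB family resembles the lipid-binding GM2 activator protein. Several are made in the taste hairs of the legs in D. melanogaster, where CheB42a has a part in male courtship.

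The unit of level is the signal of the authors' table, which behaved as corrected for gene length in D. melanogaster. Where signals of different genes are compared in the other 4 libraries, the same correction is assumed. Where 5 signals are listed without names, the melanogaster group comes first (melanogaster, simulans, yakuba) and the obscura group follows (pseudoobscura, persimilis). A difference is given on the log2(signal + 1) scale, which understates the differences of low genes. A row was compared when its mean signal over the 5 libraries was at least 5, which held for 5089 rows and for 4 of the 7 members, desat2, CheB98a, CheA87a and CheA7a. CheA7a lay just inside this limit with a mean of 5.30. CheB42a lay outside it with a mean of 0.828, and CheA46a and CheA84a were listed at 0 in all 5 libraries.

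The desat2 row (3R:12436248-12437857 in BDGP6, plus strand) had a signal of 428 in D. persimilis, 348 in D. pseudoobscura, 2.19 in D. simulans, 1.11 in D. melanogaster and 0 in D. yakuba. Both obscura group libraries were therefore high, the other 3 were near 0, and the groups did not overlap. The lower obscura group value exceeded the highest of the others 159-fold, or by 6.77 on the log2 scale. Of all rows, 95.6% lay below desat2 in each obscura group library, against 26.7% in D. melanogaster and 38.6% in D. simulans. The obscura group libraries differed 1.23-fold from each other, a log2 difference of 0.30, where the median compared row differed by 0.77.

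CheB98a (3R:28806702-28807501, plus strand) had a signal of 132 in D. pseudoobscura and 17.1 in D. persimilis, and was listed at 0 in the 3 melanogaster group libraries. The row was thus present in the obscura group libraries only, and its level was uneven between them. D. pseudoobscura stood 7.70-fold above D. persimilis (log2 difference 2.87), and 92.8% of compared rows differed less between these libraries. A 4-fold excess of D. pseudoobscura over D. persimilis was found in 8.02% of compared rows. CheB98a exceeded 89.9% of rows in D. pseudoobscura and 63.4% in D. persimilis. The level of desat2 was 2.64 times that of CheB98a in D. pseudoobscura and 25.0 times in D. persimilis.

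**Figure D1:**
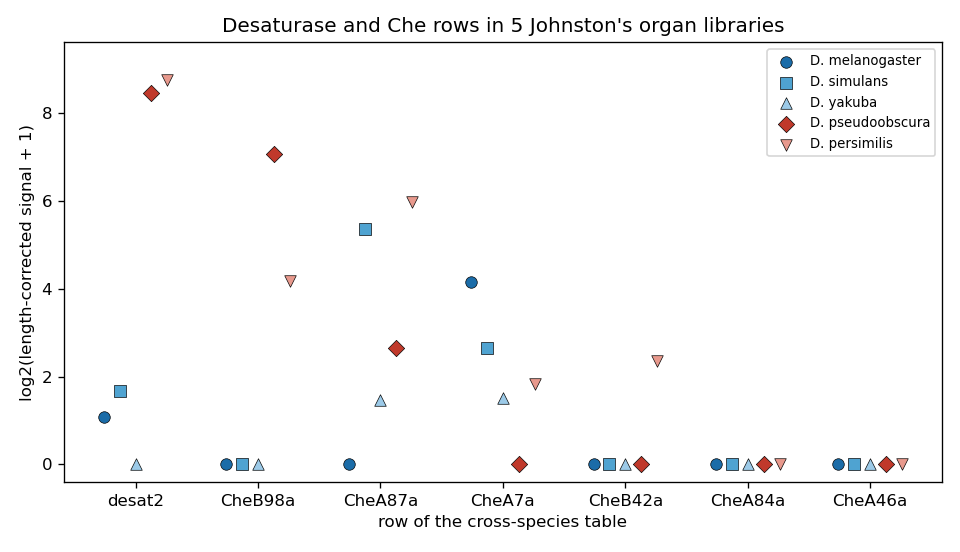
Length-corrected signal of the 7 member rows, as log2(signal + 1), with 1 point per library and species. The desat2 points of D. pseudoobscura and D. persimilis (348 and 428) lie far above the other 3, CheB98a is above 0 in these 2 libraries only, and CheA84a and CheA46a are at 0 throughout.

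By the rule that both obscura group libraries exceed the highest of the other 3 at least 2-fold, 238 compared rows were called higher (4.68%) and 298 lower (5.86%). Of the members compared, desat2 and CheB98a were called higher and none lower. By the size of this gap desat2 ranked 3 and CheB98a 15 among compared rows. Since both were chosen for this gap, nothing is read from that count. The gap of CheB98a, 4.18 on the log2 scale, was set by the pseudocount, because it is taken against libraries listed at 0, and it was 7.42 with a pseudocount of 0.1 and 1.44 with a pseudocount of 10. Of compared rows, 15 were at 0 in all 3 melanogaster group libraries, and 7 of these were called higher.

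The labels do not say how orthologous genes were assigned to rows. A row filled from another family member, or left at 0 for want of an ortholog, cannot be told apart from a change in level outside D. melanogaster. CheB98a had 0 reads in the D. melanogaster counts, for which a fixed limit of 3 reads was used, or a signal of 0.286. The intervals and limits on reads given here cover counting error only.

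The other 2 compared members, both of the CheA family, had patterns of their own. CheA87a (3R:13369648-13370346, plus strand) had signals of 61.5 in D. persimilis and 39.8 in D. simulans, followed by 5.32 in D. pseudoobscura, 1.78 in D. yakuba and 0 in D. melanogaster. Its high libraries, D. simulans and D. persimilis, come from different species groups, and their lower value was 7.48-fold above the highest of the other 3. A 2-fold gap of this kind, a split picked after the values were seen, was found in 1.28% of compared rows. Without D. simulans the obscura group gap of CheA87a was 1.18 on the log2 scale, against -2.69 with it. The exons of CheA87a share 107 of 643 bases with Lip3, a lipase gene on the other strand, whose signals were 0.0912, 0.501, 0, 2.94 and 10.9. Lip3 was highest in D. persimilis and near 0 in D. simulans, and the part of shared reads was not tested.

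CheA7a (X:7378140-7378953, plus strand) was highest in D. melanogaster. Its signal of 16.8 there was followed by 5.32 in D. simulans, 2.55 in D. persimilis, 1.83 in D. yakuba and 0 in D. pseudoobscura. D. melanogaster stood 3.15-fold above the next library, and a 2-fold excess of this kind, again picked after the values were seen, held for 3.5% of compared rows. CheA7a was not called between the species groups, because D. yakuba lay below D. persimilis. CheB42a, the courtship gene, was listed at 0 in 4 libraries and at 4.14 in D. persimilis. No member was above 0 in all 5 libraries. Of all 8180 rows, 782 were at 0 in every library, and 1397 to 2321 were at 0 in a single library, so nothing is read from the zeros of the members.

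Markers of other tissues of the antenna and head also differed in level between these libraries. Of 10 olfactory segment markers 9 were rows of the table, none at 0 in all libraries, and their summed signal was 8752 to 23152 in the melanogaster group and 33522 to 63179 in the obscura group. In the obscura group most of this sum came from the odorant-binding proteins Obp28a and Obp83a. Of 8 compared rows 2 were called higher, Obp28a and Or88a, against 4.68% of all compared rows. The groups overlapped for Orco, Snmp1, Obp84a and Obp83a, the last at 8321 in D. simulans and 7751 in D. persimilis. They did not overlap for Obp83b and Obp69a, which were higher in both obscura group libraries. Their gaps of 0.56 and 0.33 on the log2 scale were too small for a call. Or67d, at 0.946, 7.38, 3.71, 0 and 4.38, lay below the limit for comparison. Of 10 markers of taste hairs 4 were rows. Their sum was 12.8 to 49.7 in the melanogaster group and 400.3 to 472 in the obscura group, where nearly all of it came from the odorant-binding protein Obp49a (468 and 400 in D. pseudoobscura and D. persimilis). The sugar receptor Gr64f, the only other compared row of this list, was at 3.57, 7.95, 12.5, 4.42 and 0.389 and was not called. The bitter and pheromone taste receptors Gr32a and Gr33a were listed at 0 in every library. Of 10 fat body markers 7 were rows, and their sum was 7994 to 24039 in the melanogaster group against 1409 to 2756 in the obscura group. Yp1, Yp2 and the transferrin gene Tsf1 carried it and were the 3 of 6 compared rows called lower, against 5.86% of all compared rows. Lsp2 was at 494, 11.1, 0.0888, 35.0 and 24.6, and Fbp2 at 13.2, 3.85, 0.170, 35.4 and 0. The groups overlapped for both, although their mean differences of 0.70 and 0.48 on the log2 scale were in favour of the obscura group. The part of these tissues in the values of desat2 and CheB98a was not tested, and in bulk RNA fewer cells of a type and less RNA per cell cannot be told apart.

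For oenocytes, the cells that make cuticular hydrocarbons, the species groups overlapped. Of 8 oenocyte markers 3 were rows, with a summed signal of 41.8 to 124 in the melanogaster group and 47.7 to 69.9 in the obscura group. The female-specific desaturase Fad2, below the limit for comparison, was at 1.99, 0.417, 0, 10.1 and 0, and so highest in D. pseudoobscura. The summed muscle markers and the male tract row were highest in D. persimilis, where CheA87a and CheB42a were also highest. Of the 5 muscle rows among 6 markers 4 were highest there, TpnC41C being higher in D. pseudoobscura (794 against 713), and the 5 rows summed to 2235, 18899, 9725, 8984 and 43968. The single male tract row of 6 markers, the seminal fluid gene Acp53Ea, was at 193 in D. persimilis and at most 0.144 elsewhere. Their part in the CheA87a and CheB42a values was not tested.

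Reads by gene were used for D. melanogaster only, including genes that were not rows of the cross-species table. desat1 (3R:12439600-12447616, plus strand), the main desaturase of hydrocarbon synthesis, had 49631 reads (95% exact Poisson interval 49195 to 50070) and ranked 44 among the 11074 genes with reads. desat2, which starts upstream of desat1 on the same strand with 1742 bases between them, had 23 reads (14.6 to 34.5). Per kilobase of exon, desat1 held 19948 reads and desat2 16.9, a ratio of 1177 (777 to 1873 from the bounds of both intervals). The exons of desat2 share 41 of 1357 bases with CG17207, a gene on the other strand with 49 reads. Whether reads were shared between the related desat1 and desat2 transcripts is not stated in the labels.

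Among the 8 desaturase genes of D. melanogaster, desat1 made up 90.3% of the reads per kilobase, and desat2 ranked 7. CG9743 followed desat1 with 2192 reads (2101 to 2286), or 1265 per kilobase. The sphingolipid desaturase gene ifc had 1403 reads (1331 to 1478), or 637 per kilobase. CG8630 had 258 reads (227 to 291), CG15531 had 82 (65.2 to 102), Fad2 had 40 (28.6 to 54.5) and CG9747 had 1 (0.0253 to 5.57).

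Converted to the scale of the cross-species table, the desat1 reads of D. melanogaster correspond to a signal of 1305. This was 3.75 times the desat2 signal of D. pseudoobscura and 3.05 times that of D. persimilis. The desat1 level of the other 4 species was not analysed here, so that a ratio of desat2 to desat1 within each species could not be had.

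The leading desaturase row within a library differed between the species groups, and the order within a library does not depend on the scaling between libraries. Only desat2 made this difference, since CG9743 led the other rows in every library. Because desat2 was chosen for its high obscura group signal, this is again a description. The cross-species table held 6 desaturase rows, and desat1 and ifc were not among them. The sums and shares below therefore leave out desat1, the main desaturase of D. melanogaster, and are not shares of all desaturase RNA. In the melanogaster group the leading row was CG9743, at 83.0, 67.0 and 57.5. desat2 made up 1.13%, 2.75% and 0% of the summed desaturase signal there. In D. pseudoobscura desat2 led with 87.4% of the sum and stood 9.08-fold above CG9743 (38.3). In D. persimilis it held 92.9% and stood 17.7-fold above CG9743 (24.2). The summed desaturase signal was 98.3, 79.4 and 66.0 in the melanogaster group and 398 and 461 in the obscura group, and without desat2 it was 97.2, 77.3 and 66.0 against 50.0 and 32.7. Without the desat2 row the obscura group was therefore lower in this sum.

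**Figure D2:**
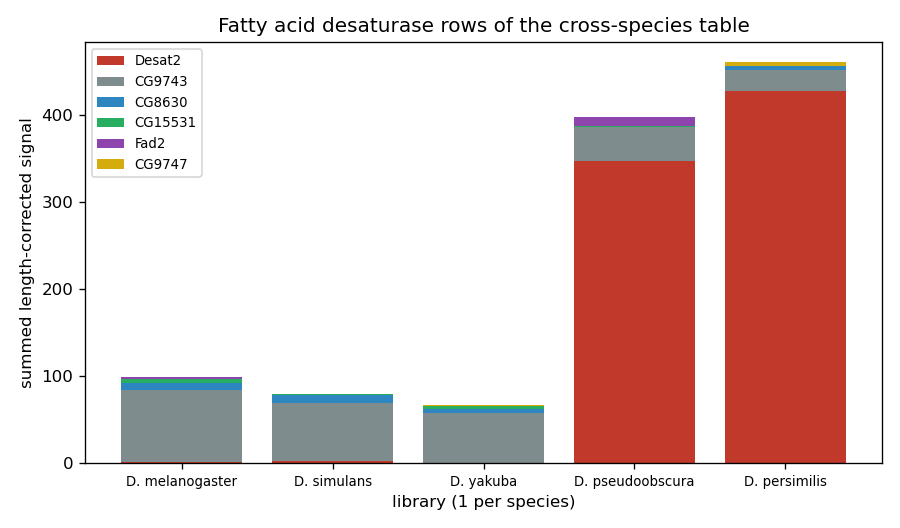
Stacked bars of the length-corrected signal of the 6 desaturase rows of the cross-species table, 1 bar per library. CG9743 fills most of the bar in the melanogaster group, and desat2 fills 87.4% and 92.9% of it in D. pseudoobscura and D. persimilis. desat1 and ifc are not rows of the table and are not in the bars.

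Few CheA and CheB genes had reads in D. melanogaster. The annotation holds 20 of them, 8 CheA and 12 CheB, of which 14 were not rows of the cross-species table. At least 1 read was counted on 8 genes, 3 CheA and 5 CheB, and the other 12 had none, each with the fixed limit of 3 reads. Among 13296 protein-coding genes 23.7% had no read. The family held 551 reads in all, and CheB42b and CheA7a together made up 80.6% of them.

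CheB42b (2R:6943096-6943995, minus strand) led with 259 reads (228 to 293), or 384 per kilobase. CheA7a followed with 185 reads (159 to 214), or 257 per kilobase. CheB42c had 66 reads (51.0 to 84.0), of whose exons 961 of 1649 bases are shared with the gene mim on the same strand, which had 831 reads, so that reads of CheB42c are uncertain. CheB42a, which lies in the same cluster, had no read. The remaining genes with reads were CheB74a with 15 (8.40 to 24.7), CheA75a with 9 (4.12 to 17.1), CheA56a and CheB38c with 8 each (3.45 to 15.8) and CheB93b with 1. The genes with no read were CheA29a, CheA46a, CheA84a, CheA86a, CheA87a, CheB38a, CheB38b, CheB42a, CheB53a, CheB53b, CheB93a and CheB98a.

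**Figure D3:**
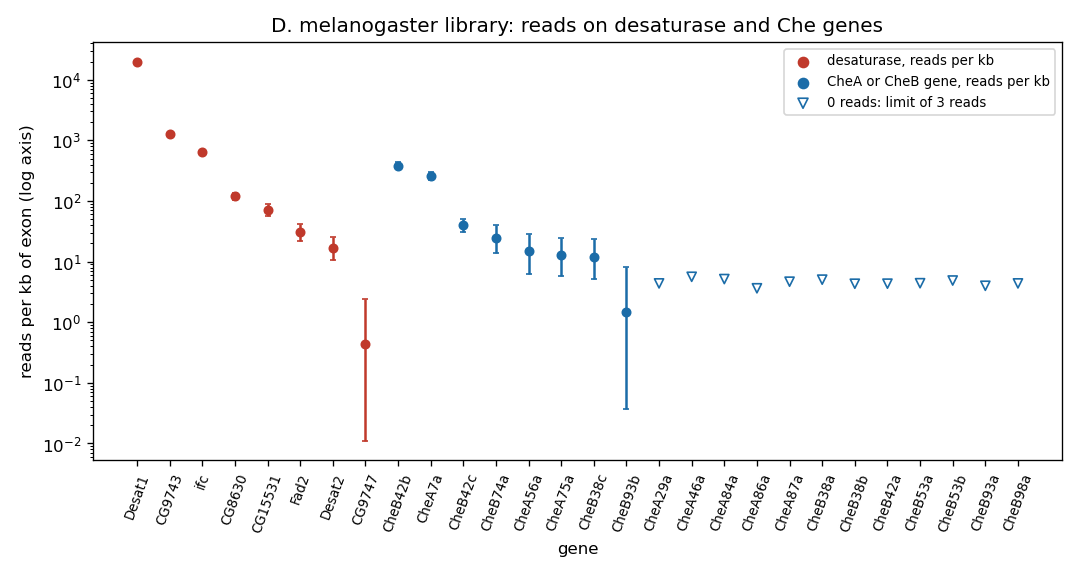
Reads per kilobase of exon on desaturase genes (red) and CheA and CheB genes (blue) in the D. melanogaster library, on a log axis, with 95% exact Poisson intervals as bars. Open triangles mark the limit of 3 reads for the 12 genes with none. desat1 stands at 19948 and desat2 at 16.9, and CheB42b leads the Che genes at 384.

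The other genes of hydrocarbon synthesis were taken from lists by step. Lists of desaturases, fatty acid synthesis, elongation, fatty acyl reduction and decarbonylation held 51 genes, of which 31 were rows and 22 were compared. None of the 22 was called higher in the obscura group and 2 were called lower, against 4.68% and 5.86% of all compared rows, so that the counts lie near the shares over all rows and are no result about these genes. The other 29 genes were not compared. The median difference of the 22 compared genes between the obscura and melanogaster groups was -0.86 on the log2 scale, against -0.06 over all compared rows. Under equal library totals the median of all compared rows was -0.32. The median of the 22 genes was not computed under equal totals, so -0.32 is no background for -0.86.

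By step of the pathway, none of 2 compared desaturases other than desat2 was called, and CG9743 had the highest mean. All 3 genes of fatty acid synthesis compared were uncalled, and FASN1, the fatty acid synthase, led them with 105, 60.9, 52.9, 41.6 and 34.8. Among 11 elongation genes 1 was called lower. This was Baldspot, a fatty acid elongase, at 116, 75.3 and 132 in the melanogaster group against 22.1 and 16.0. Sc2, the enoyl reductase of the elongation cycle, had the highest mean of this list, at 166, 107, 217, 331 and 179, and was not called.

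Among 4 fatty acyl reductases 1, CG1441, was called lower, at 60.8, 15.8 and 19.96 in the melanogaster group against 5.78 and 0.494. Its gap of 1.31 on the log2 scale became 0.89 with equal totals, which ends that call. CG8306 had the highest mean of the reductases (149, 56.1, 76.4, 137 and 58.0) and was not called. Of the decarbonylation genes, neither Cyp4g15, a relative of the hydrocarbon-forming cytochrome P450, nor Cpr, the reductase that passes electrons to such enzymes, was called. Cpr led with 194, 79.8, 93.2, 204 and 93.4. The hydrocarbon-forming Cyp4g1 itself had 1792 reads in D. melanogaster and was not a row of the table.

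Genes of pheromone detection held 19 names, 13 rows and 6 compared rows, with 1 called higher and none lower, against 4.68% and 5.86% of all compared rows. The called row was Or88a, a receptor for fly-derived odours, at 2.12, 0.739 and 0 in the melanogaster group against 23.0 and 18.2. Orco, the co-receptor of odorant receptors, had the highest mean, at 88.0, 77.3, 678, 376 and 348, and its groups overlapped because D. yakuba was highest. The median difference of the 6 rows was 0.90. The taste receptors Gr32a, Gr33a and Gr68a were listed at 0 in all 5 libraries. In D. melanogaster the leg pheromone channel genes ppk25 and ppk29 had 15 and 19 reads and ppk23 had none.

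**Figure D4:**
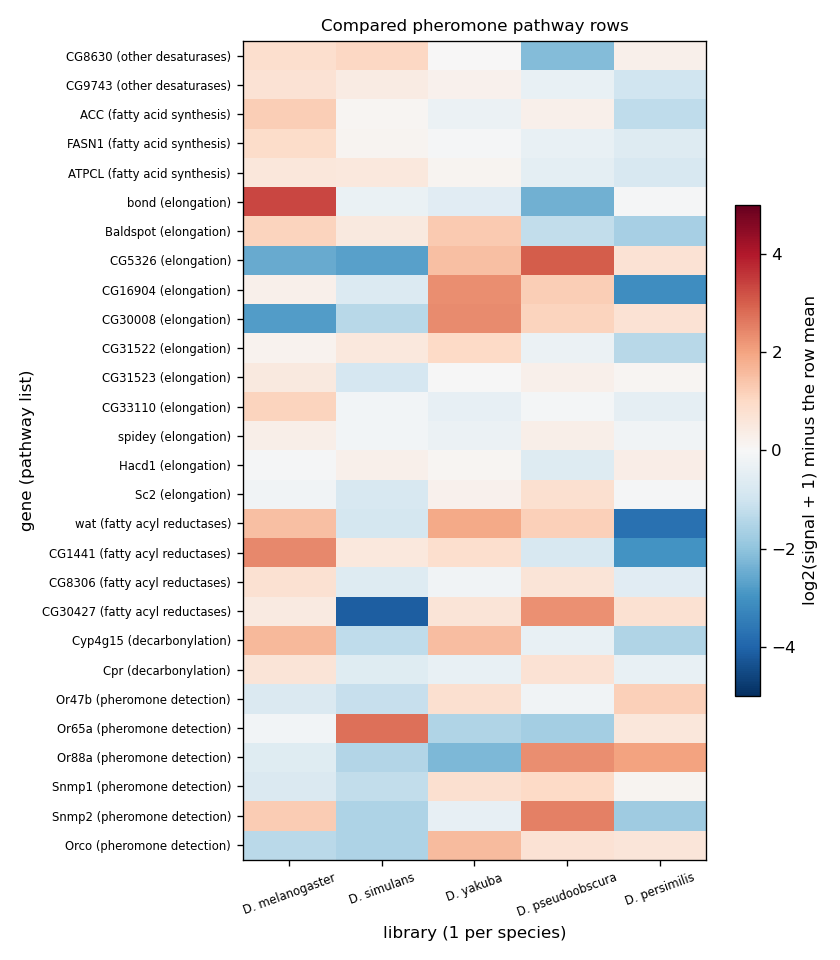
Colour map of log2(signal + 1) minus the row mean for the 28 compared rows of the pathway lists, with 1 column per library. Or88a is the row with both obscura group columns high, and Baldspot and CG1441 are the rows with both low by the 2-fold gap.

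The neighbourhood of desat2 was taken from the D. melanogaster chromosome. Of the 10 nearest rows, 5 on each side, 9 were compared, none of them past the gap in either direction, and with 4.68% and 5.86% of all compared rows past it nothing is read from this count. Their differences between the obscura and melanogaster groups lay between -1.17 and 1.003 on the log2 scale with a median of -0.51, where desat2 was at 7.68. CG5844 (Srlp), the nearest row on the left, had signals of 100.4, 61.0, 50.2, 30.4 and 42.9.

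Around CheB98a 3 of the 10 nearest rows were compared. The next row, the zinc finger gene wings down (wdn), was called lower, at 15.0, 15.9 and 22.5 against 0.208 and 1.38. Prp39 (CG1646) was at 12.5, 1.08, 20.1, 40.8 and 32.8 and was not called. On the other side CG14061 (aqrs), a gene of the male tract, was listed at 0 in 4 libraries and at 28.8 in D. persimilis, and CG9997, below the limit for comparison, was at 19.9 there and at 0 elsewhere. CheB98a was higher in D. pseudoobscura than in D. persimilis, and a part of the male tract in its signal was not tested. The order of genes is that of D. melanogaster, and gene order in the other species was not analysed here.

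**Figure D5:**
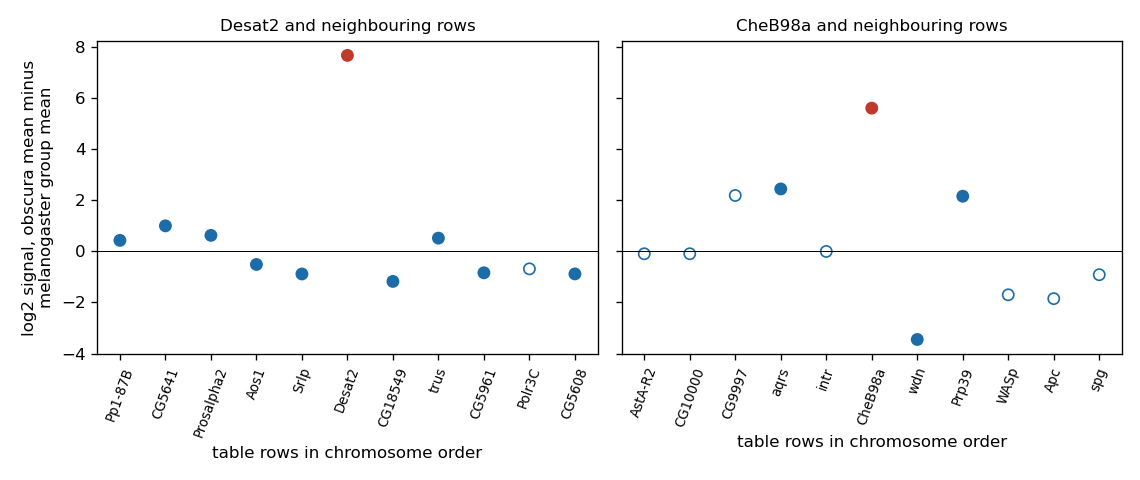
Difference in mean log2(signal + 1) between the obscura and melanogaster groups for desat2, CheB98a (red) and the 5 table rows on each side in D. melanogaster chromosome order (blue). Open points are rows below the mean signal of 5. desat2 (7.68) and CheB98a (5.61) stand above all their plotted neighbours.

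The rows most like desat2 and CheB98a were found by the Euclidean distance between centred log2 profiles over the 5 libraries. For desat2 these were CG5103 (distance 1.77; 0.978, 0, 0.0350, 123 and 129), Or74a (2.25), Cyp6a19 (2.35), RpS28-like (2.41) and CG11839 (2.56; 9.86, 12.8, 2.98, 246 and 518). Or74a is an odorant receptor gene and Cyp6a19 encodes a cytochrome P450. For CheB98a they were Or74a (1.44), RpS28-like (1.56), the Tweedle cuticle protein gene Twdlalpha (1.98; 1.60, 0, 0, 58.3 and 8.85), CG32726 (2.13; 0, 0, 2.51, 75.5 and 44.1) and CG13631 (2.18; 17.9, 4.12, 7.29, 313 and 139). The lists shared 2 rows, Or74a and RpS28-like. Of the 5, Twdlalpha had a D. pseudoobscura excess over D. persimilis close to that of CheB98a. With a pseudocount of 10, 3 of the 5 rows were again among the nearest to desat2 and 1 of the 5 among the nearest to CheB98a.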

How the data were processed

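RNA of adult Johnston's organ was sequenced from 5 species, 1 library each. Per the submitters' processing notes TopHat2 2.0.3 and HTSeq were used, whose roles and settings for strand and multiply mapped reads were not stated. The deposited counts are whole reads per gene, per the labels on annotation releases 5.46 (D. melanogaster), 1.4 (D. simulans), 1.3 (D. yakuba and D. persimilis) and 2.30 (D. pseudoobscura). The deposited signal table is not described in the labels. Its 75th percentile was 34.3366 in every library. For 5842 rows with over 20 D. melanogaster reads, signal times exon length over reads lay within 5% of its median for 76.8%, and each of 1353 matched rows at 0 had no read, so it was read as reads per length. All values were multiplied by 1.09093, a common factor that leaves the authors' scaling between libraries as it was. The median factor converted D. melanogaster reads to signal.

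Symbols were matched to BDGP6, a later assembly than the authors' release, for 8087 of 8180 rows, which supplied coordinates, exon lengths and overlaps. Differences were taken as log2(signal + 1). Each species had 1 library, and different species were not treated as repeats of one condition, for which reason no test was made. The 2-fold gap rule was tested on simulated data with counting error only, so that test does not cover other variation between libraries or species. Poisson intervals are exact at 95%. For genes with no read a fixed limit of 3 reads was used, where the upper bound of the exact interval is 3.69. All members, list rows called or with the highest mean of their list, the 5 nearest profiles, called neighbours and Che genes with reads were to be named. Uncalled neighbours, further desaturases, genes with no read and marker rows were named after their values were seen. Members and lists were chosen with earlier results of these data known. Python 3.11.15, pandas 2.3.3, NumPy 2.4.6, SciPy 1.17.1 and matplotlib 3.10.9 were used.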

Additional observations from a re-analysis of the deposited data

How the results depend on the processing

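The calls of desat2 and CheB98a as higher in the obscura group held under other pseudocounts (0.1 and 10), equal library totals and median-of-ratios scaling. Leaving out a library can only keep or raise this gap, so the calls could not fail there and nothing is read from it. Both rows had also been chosen for this gap. The gap of desat2 was 4.88 to 7.25 under the pseudocounts and scalings and 6.77 to 7.37 without single libraries. That of CheB98a was 1.44 to 7.42 and 4.18 to 7.05. The log2 excess of CheB98a in D. pseudoobscura over D. persimilis stayed between 2.39 and 3.28. The number of compared rows called higher, 238, was 157 with equal totals and 361 to 478 without single libraries. The number called lower, 298, was 120 with a pseudocount of 10, 151 among rows with a mean of at least 20, and 391 to 747 without single libraries, and 350 with equal totals. Leaving out a library of either group lessens what the rule asks for, so these counts are not like for like. Of the pathway rows 2 were called lower, and 1 with equal totals (Baldspot, with CG1441 lost). Of the 5 rows most like desat2 and CheB98a, 3 and 1 stayed with a pseudocount of 10. The obscura group gap of CheA87a lay between -2.69 and 1.18 without single libraries, and that of CheA7a between -4.15 and -2.33. The planned ratio of desat2 to desat1 was not run, since desat1 was no row of the table. No paired analysis was possible because each species had 1 library. Counts of the other species were not matched to rows by gene, so the number of reads behind a signal was looked up in D. melanogaster only.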
